A study of Rattus norvegicus with 2 samples.

Results

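The genes described here encode the cholesterol and fatty acid synthesis machinery. With it are regulators, the sterol carrier gene Stard4 and genes that put fatty acids to use (Acsl3, Lpin1, Lpin2 and Cpt1a). They were followed in 2 single colonies taken from the rat glioma line C6, which is widely used as a model of astrocytic tumours. The genes were taken from a list of 33 gene symbols. Of these, 30 were found on the array as a feature annotated with exactly 1 symbol, out of 18166 genes measured, and each of the 30 had 1 such feature. Hmgcs1, Mvk and Fasn were not analysed here. The list was divided into a sterol arm (16 of 18 genes measured) and a fatty acid arm (14 of 15 genes measured).

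Colony No.8 and colony No.4 each gave 1 whole-transcript expression array made from total RNA. Both colonies carry the same description, an undifferentiated single colony of C6 cells grown in medium with 10% serum, and no strain or genotype is labelled as different between them. Both also carry the same treatment text, CHIR99021 (an inhibitor of the kinase GSK3) at 20 µM with forskolin (an activator of adenylyl cyclase) at 100 µM for 35 days, and the labels do not say whether the RNA was taken before or after it. Each colony stands for 1 isolate of the line, so what separates these colonies cannot be told apart from what separates any cultures or hybridizations.

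All values are the deposited log2 levels, and a difference is the level in colony No.8 minus the level in colony No.4. With 1 array per colony there was no replicate, no spread and no test, and the number of arrays limits the precision. A gene counted as past the floor when its level reached 4.33, the median of all deposited values, in at least 1 colony, and 11069 genes were. A second mark, 5.67, is the 99th percentile of the olfactory receptor genes, which cells outside the nose mostly do not express, and levels under it may lie near background. The colonies had nearly equal quartiles (3.16, 4.31 and 6.37 in colony No.8, and 3.17, 4.34 and 6.37 in colony No.4). The glial and progenitor filament genes Vim (12.60 in colony No.8, against 12.57 in colony No.4) and Nes (9.94 in colony No.8, against 9.54 in colony No.4) and the glial gene S100b were bright, whereas Gfap was under 5.67 in both colonies. None of 5 microglial, 3 endothelial, 4 neuronal and 5 hepatocyte or adipocyte markers reached 5.67 in either colony.

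Cells build cholesterol from acetyl-CoA through mevalonate, farnesyl diphosphate, squalene and lanosterol, and they build fatty acids from the same acetyl-CoA through malonyl-CoA. Transcription of both routes is set largely by the SREBP factors, which are held in the endoplasmic reticulum by SCAP and the INSIG proteins when sterols are plentiful and are cut free in the Golgi when sterols are scarce. In brain, where circulating lipoproteins do not cross the barrier, cholesterol is made locally, and glial cells are a main site of its synthesis.

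Sequences upstream of the genes are shown first, for the sterol genes Mvd, Lss and Insig1, which were lower in colony No.8, for Insig2, the relative of Insig1 with the opposite difference, for Elovl5, which held all 3 motifs marked, and for Lpin1 and Cpt1a, which differed by over 2-fold in opposite directions. Each runs 5′ to 3′ from 250 bases before to 50 bases after a start annotated by RefSeq on build GRCr8 (the start nearest the measured transcripts was not determined). The windows lie at chr19:67414925-67415224 (minus strand) for Mvd, chr20:12118181-12118480 (minus) for Lss, chr4:8057720-8058019 (minus) for Insig1, chr13:35040049-35040348 (minus) for Insig2, chr8:87670914-87671213 (plus) for Elovl5, chr6:45108893-45109192 (minus) for Lpin1 and chr1:209995910-209996209 (plus) for Cpt1a. Capitals mark CCAAT (the box bound by NF-Y, a usual partner of the SREBP factors), CACGTG (the E-box) and TGACGTCA (the palindromic cyclic AMP response element), on either strand.
Mvd: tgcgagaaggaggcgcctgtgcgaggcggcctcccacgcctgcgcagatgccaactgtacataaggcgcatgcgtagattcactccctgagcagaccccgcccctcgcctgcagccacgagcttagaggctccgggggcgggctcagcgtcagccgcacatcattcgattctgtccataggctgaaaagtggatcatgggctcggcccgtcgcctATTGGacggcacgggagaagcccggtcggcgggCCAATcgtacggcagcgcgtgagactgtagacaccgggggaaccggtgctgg
Lss: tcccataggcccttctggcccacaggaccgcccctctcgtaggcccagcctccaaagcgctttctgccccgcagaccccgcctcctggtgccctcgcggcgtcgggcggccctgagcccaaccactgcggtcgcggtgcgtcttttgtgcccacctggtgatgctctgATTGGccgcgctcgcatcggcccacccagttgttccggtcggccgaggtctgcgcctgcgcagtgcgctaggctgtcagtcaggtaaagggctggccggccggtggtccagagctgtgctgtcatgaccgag
Insig1: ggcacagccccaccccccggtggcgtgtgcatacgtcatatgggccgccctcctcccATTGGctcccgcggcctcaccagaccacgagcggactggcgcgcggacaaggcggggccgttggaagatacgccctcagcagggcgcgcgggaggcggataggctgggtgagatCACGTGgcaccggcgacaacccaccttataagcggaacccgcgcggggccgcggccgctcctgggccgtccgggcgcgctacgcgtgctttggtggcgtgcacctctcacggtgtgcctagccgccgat
Insig2: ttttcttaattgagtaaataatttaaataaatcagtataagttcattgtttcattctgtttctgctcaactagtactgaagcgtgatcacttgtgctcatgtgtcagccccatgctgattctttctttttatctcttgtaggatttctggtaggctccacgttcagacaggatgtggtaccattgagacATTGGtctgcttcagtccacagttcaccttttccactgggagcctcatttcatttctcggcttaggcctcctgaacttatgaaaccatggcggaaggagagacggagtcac
Elovl5: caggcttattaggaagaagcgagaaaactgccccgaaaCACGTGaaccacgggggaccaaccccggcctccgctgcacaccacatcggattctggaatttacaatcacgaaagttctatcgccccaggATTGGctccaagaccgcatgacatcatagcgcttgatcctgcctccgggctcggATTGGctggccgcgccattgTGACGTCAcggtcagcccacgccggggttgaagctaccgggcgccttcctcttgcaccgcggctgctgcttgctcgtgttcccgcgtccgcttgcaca
Lpin1: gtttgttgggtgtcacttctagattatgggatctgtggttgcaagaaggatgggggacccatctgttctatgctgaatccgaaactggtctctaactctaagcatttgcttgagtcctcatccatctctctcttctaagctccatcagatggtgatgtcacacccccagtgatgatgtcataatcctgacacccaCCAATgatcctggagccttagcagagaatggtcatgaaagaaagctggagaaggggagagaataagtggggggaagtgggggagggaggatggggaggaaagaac
Cpt1a: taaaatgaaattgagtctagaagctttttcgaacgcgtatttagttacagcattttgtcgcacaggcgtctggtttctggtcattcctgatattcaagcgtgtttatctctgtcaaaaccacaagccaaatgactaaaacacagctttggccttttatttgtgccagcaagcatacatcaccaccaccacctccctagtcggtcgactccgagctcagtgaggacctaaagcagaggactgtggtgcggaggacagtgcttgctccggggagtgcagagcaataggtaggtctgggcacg

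Windows were found for 26 of the 33 listed genes. None was found for Pmvk, Fdft1, Sqle, Stard4, Acaca, Fasn and Elovl6. CCAAT, read on both strands, stood in 12 of the 14 sterol arm genes with a window (85.7%) and in 8 of the 12 fatty acid arm genes (66.7%), whereas 37.5% of all 33469 windows and 38.0% of the 21851 windows of protein-coding genes held it. The sterol arm genes without it were Cyp51 and Dhcr7, which differed in opposite directions between the colonies (0.24 and -0.67). Elovl5 held 2 CCAAT boxes, the only TGACGTCA of the 26 genes (1.83% of all windows) and 1 of the 3 E-boxes, the others being in Insig1 and Sc5d (6.42% of all windows). TGACGTNA, a looser form that includes TGACGTCA, was also in Msmo1 (3.25% of all windows), and the core TGACG, which lies inside both, was in 9 of the 14 sterol arm genes and 2 of the 12 fatty acid arm genes (21.2% of all windows). The sterol regulatory element searched as TCACNCCAC, as the looser TCACNCNAC that includes it and as the partly overlapping CACCCCAC was in none of the 26 genes, against 1.12%, 2.48% and 2.70% of all windows. A match is a run of letters and no measured site, and a missing match says only that these letters are not in the window.

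Most sterol genes were somewhat lower in colony No.8, none by 2-fold, and the only differences of 2-fold or more were in the fatty acid arm. Of all genes past the floor 5.47% differed by 2-fold or more, so the absence from 16 sterol genes sets that arm little apart. Both arms held genes of either direction. In the sterol arm 12 of 16 genes were lower in colony No.8 and the median difference was -0.17, and in the fatty acid arm 8 of 14 were lower and the median difference was -0.09. Over all genes measured 44.3% were lower in colony No.8 and the median difference was 0.03, and over the genes past the floor these were 45.5% and 0.04. Bright genes as a whole leaned slightly lower in colony No.8: of the 2675 genes at 8 or over in the brighter colony 52.4% were lower, with a median of -0.03. Of the 11 sterol arm genes in that range 9 were lower, with a median of -0.17. Fewer transcripts per cell and fewer cells that make them cannot be told apart in such bulk RNA.

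Past the floor were 29 of the 30 measured genes, all but Acacb. Of these, 2 were higher by 2-fold or more in colony No.8 (Acaca and Cpt1a), as were 2.91% of all genes past the floor, and 1 was higher by 2-fold or more in colony No.4 (Lpin1), as were 2.57%. In either direction that is 3 of 29, against 5.47% of genes past the floor. At the smaller size of 1.5-fold, 3 of the 29 were higher in colony No.8 (background 9.87%) and 7 were higher in colony No.4 (background 7.93%). Those 7 were Mvd, Lss, Dhcr7, Stard4, Elovl5, Acsl3 and Lpin1, and the 3 were Acaca, Elovl6 and Cpt1a. Most members were bright, and among bright genes the background leaned the other way. Of the 20 members at 8 or over in the brighter colony, 4 were higher by 1.5-fold in colony No.4 (background in that range 11.1%). In colony No.8, 2 of the 20 were (background in that range 9.64%). These counts compare 1 array with 1 array, and nothing in them measures how far repeat arrays of 1 colony would differ.

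**Figure D1:**
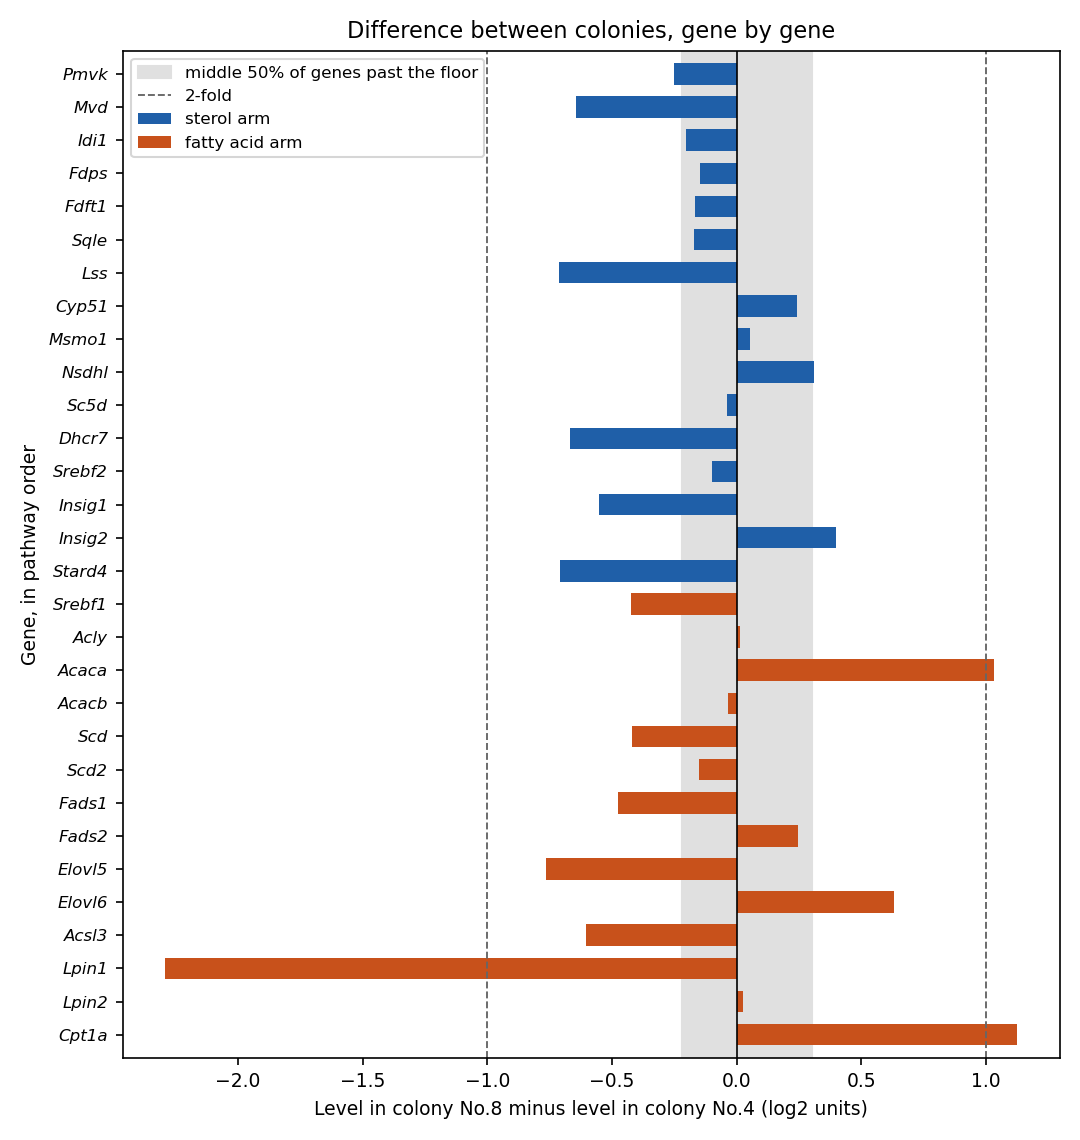
Difference between the colonies for the 30 measured genes in pathway order (x axis, level in colony No.8 minus level in colony No.4, log2 units). Bars of the sterol arm are blue and those of the fatty acid arm orange, the grey band holds the middle 50% of the differences of all genes past the floor (-0.22 to 0.30), and dashed lines mark 2-fold. Lpin1 reaches -2.29, Acaca and Cpt1a pass the 2-fold line on the other side, and every sterol gene stays inside both lines.

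The 4 measured members that act between mevalonate and farnesyl diphosphate were lower in colony No.8, by amounts between 1.11-fold and 1.56-fold. Acat2, the thiolase that starts the route, is not among the members, was named after its value was seen, and was higher there, at 7.71 in colony No.8, against 7.51 in colony No.4. Pmvk, phosphomevalonate kinase, was at 7.005 in colony No.8, against 7.25 in colony No.4. Mvd, mevalonate diphosphate decarboxylase, which makes the first isoprene unit, was at 6.76 in colony No.8, against 7.40 in colony No.4, a difference of -0.64. Idi1, the isomerase that supplies the second isoprene form, was at 8.57 in colony No.8, against 8.78 in colony No.4. Mvd thus stood further from 0 than its neighbours in the route, and 14.8% of all genes past the floor differed by as much in either direction. Fdps, which joins isoprene units into farnesyl diphosphate, was at 9.91 in colony No.8, against 10.06 in colony No.4, a difference of -0.15, within the middle 50% of all differences.

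From squalene synthase onwards 5 of 8 enzymes were lower in colony No.8 and 3 were higher. Fdft1, squalene synthase, the first step committed to sterols, was at 9.67 in colony No.8, against 9.84 in colony No.4. Sqle, squalene epoxidase, a rate-limiting step, was at 9.99 in colony No.8, against 10.16 in colony No.4. Both were thus about 1.12 to 1.13-fold lower in colony No.8. Lss, which folds squalene epoxide into lanosterol, was at 7.48 in colony No.8, against 8.20 in colony No.4, a difference of -0.71, which with that of Stard4 was the furthest from 0 in the sterol arm. The order of Lss, Stard4 and Dhcr7 changed with the scaling (-0.74, -0.76 and -0.67 after loess, and -0.56, -0.45 and -0.56 with an offset of 64 added on the linear scale). As large a difference as that of Lss was seen in 11.8% of genes past the floor.

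The 3 enzymes higher in colony No.8 act on lanosterol and the sterols made from it. Enzymes that act among them but are not members differed in either direction (Lbr by 0.47, Tm7sf2 by -0.05 and Hsd17b7 by -0.04, named after their values were seen). Cyp51, the lanosterol demethylase, was at 9.78 in colony No.8, against 9.54 in colony No.4. Msmo1, a methylsterol oxidase, was at 10.78 in colony No.8, against 10.72 in colony No.4. Nsdhl, the dehydrogenase that works with it, was at 7.92 in colony No.8, against 7.61 in colony No.4, a difference of 0.31. Of Cyp51, Msmo1 and Nsdhl, only Nsdhl lay outside the middle 50% of all differences, and only just.

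Sc5d and Dhcr7 act near the end of the route. Sc5d, lathosterol oxidase, was at 8.84 in colony No.8, against 8.88 in colony No.4. Dhcr7, which reduces dehydrocholesterol to cholesterol, was at 8.10 in colony No.8, against 8.76 in colony No.4, a difference of -0.67. Of the measured enzymes of the sterol arm, Mvd, Lss and Dhcr7 were thus the furthest apart, each lower in colony No.8 by between 1.56-fold and 1.64-fold, while the others differed by at most 1.24-fold.

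**Figure D2:**
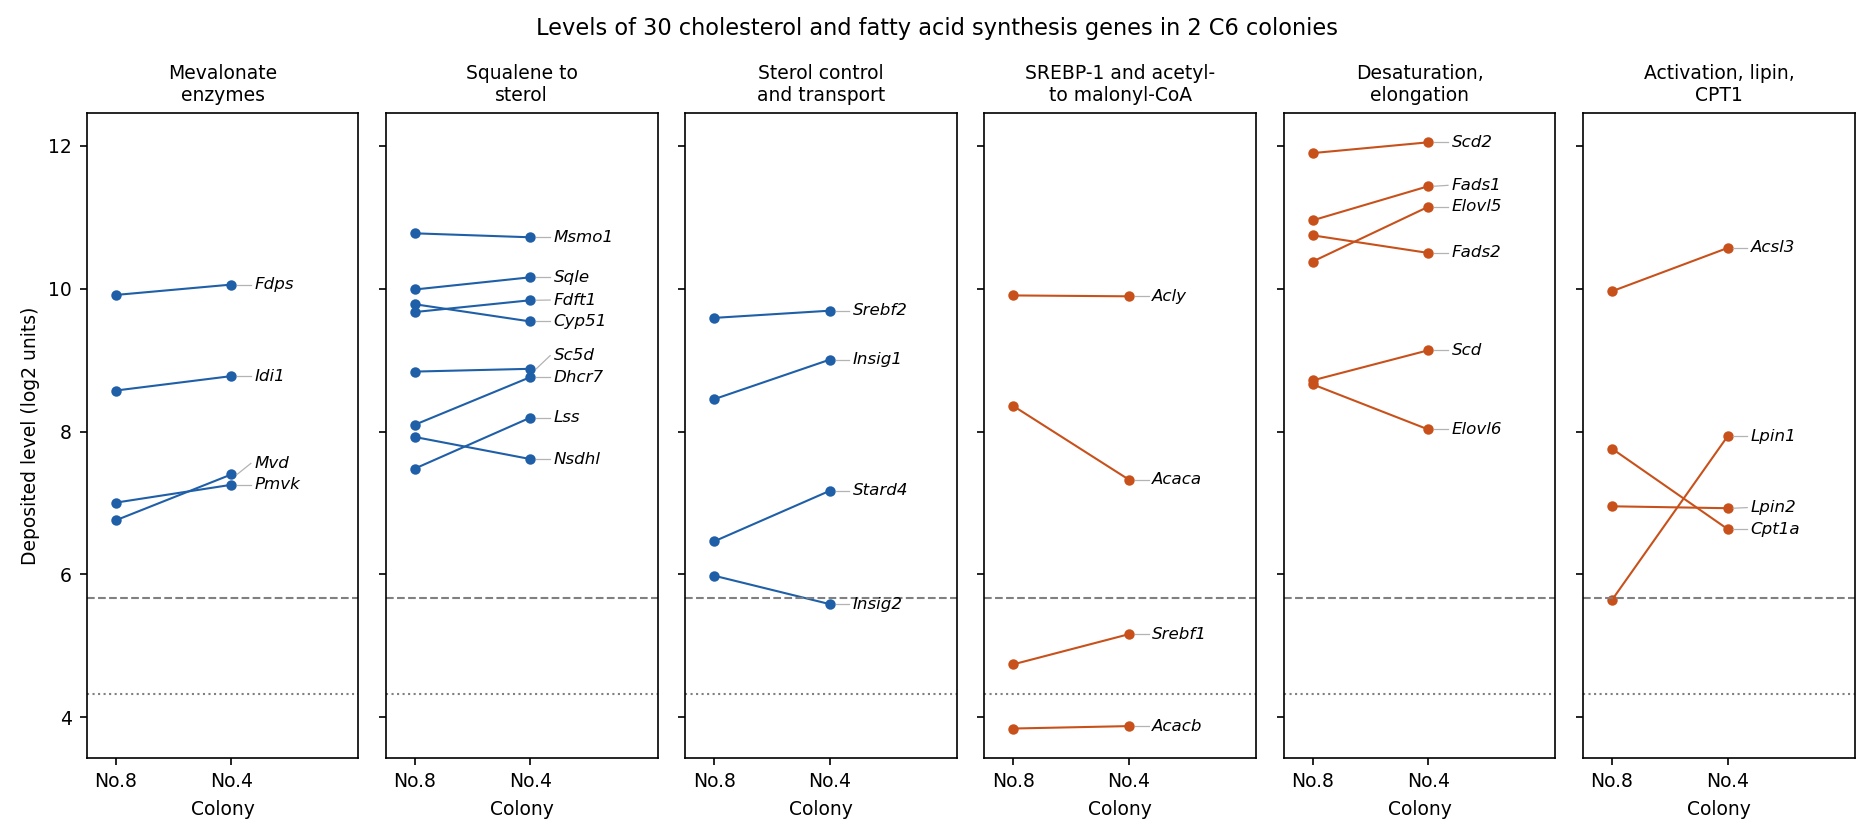
Deposited level (y axis, log2 units) of each measured gene in colony No.8 (left point) and colony No.4 (right point), in 6 panels by role, with the sterol arm in blue and the fatty acid arm in orange. The dotted line is the floor of 4.33 and the dashed line 5.67, the 99th percentile of olfactory receptor genes. Slopes show differences within a gene, heights of different genes are not comparable because each rests on its own probes, and the steepest line is that of Lpin1.

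Of the genes that control the sterol route, the SREBP-2 gene differed little, while its feedback gene Insig1 and the sterol carrier gene Stard4 were lower in colony No.8. Srebf2, which encodes SREBP-2, the main activator of sterol synthesis, was at 9.59 in colony No.8, against 9.69 in colony No.4. Insig1, an SREBP target whose product retains SCAP and the SREBPs in the endoplasmic reticulum, was at 8.45 in colony No.8, against 9.01 in colony No.4, a difference of -0.55 (1.47-fold lower). Stard4, which carries cholesterol between membranes, was at 6.46 in colony No.8, against 7.17 in colony No.4, a difference of -0.71 (1.63-fold lower). Insig2, the related retention protein, went the other way, at 5.98 in colony No.8, against 5.58 in colony No.4. Its level in colony No.4 was under 5.67, so part of its range may lie near background, and counted from 5.67 its difference was 1.24-fold.

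In the fatty acid arm, Acly, the gene of 1 cytosolic acetyl-CoA source, differed by 0.01 while that of the carboxylase that follows was higher in colony No.8. Acly, ATP citrate lyase, which releases acetyl-CoA from citrate, was at 9.91 in colony No.8, against 9.89 in colony No.4. Acaca, acetyl-CoA carboxylase alpha, which makes malonyl-CoA and sets the pace of fatty acid synthesis, was at 8.36 in colony No.8, against 7.33 in colony No.4, which is 2.04-fold higher in colony No.8. Of all genes past the floor 5.07% differed as much. Acacb, the mitochondrial carboxylase, was below the floor at 3.84 in colony No.8, against 3.88 in colony No.4. Srebf1, which encodes SREBP-1, the regulator of fatty acid genes, was at 4.74 in colony No.8, against 5.16 in colony No.4, both under 5.67, so that its difference of -0.42 may lie near background.

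Both stearoyl-CoA desaturase genes of the list were lower in colony No.8. Scd, a stearoyl-CoA desaturase that makes monounsaturated fatty acids, was at 8.72 in colony No.8, against 9.14 in colony No.4. Its relative Scd2 was at 11.90 in colony No.8, against 12.05 in colony No.4. The genes are close copies and the probes behind each feature were not examined, so that their signals may not be fully separate.

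The enzymes that make polyunsaturated fatty acids did not all differ in one direction. Fads1, the delta-5 desaturase, was at 10.96 in colony No.8, against 11.43 in colony No.4, a difference of -0.48. Fads2, the delta-6 desaturase, was at 10.75 in colony No.8, against 10.50 in colony No.4, a difference of 0.25. Elovl5, which lengthens polyunsaturated fatty acids, was at 10.38 in colony No.8, against 11.15 in colony No.4, which is 1.70-fold lower in colony No.8. Elovl6, which lengthens palmitate to stearate, was at 8.66 in colony No.8, against 8.03 in colony No.4, which is 1.55-fold higher in colony No.8. Elovl5 and Elovl6 were 1.40 log2 units apart in their differences, although both belong to the same enzyme family. Of the elongase genes outside the list that were past the floor, named after their values were seen, Elovl1 differed by 0.33 and Elovl4 by -0.09.

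The largest difference of the 30 genes was in a step that directs fatty acids into glycerolipids. Lpin1 encodes lipin 1, a phosphatidate phosphatase that makes diacylglycerol and also acts in the nucleus as a transcriptional coactivator. Its level was 5.64 in colony No.8, against 7.93 in colony No.4, a difference of -2.29 (4.90-fold lower in colony No.8). The level in colony No.8 was just under 5.67, and counted from 5.67 the difference was 4.79-fold. With an offset of 64 added on the linear scale it was -1.44, still over 2-fold but smaller. Only 0.578% of genes past the floor differed as much in either direction. Lpin2, which encodes another lipin with the same enzyme activity, was at 6.95 in colony No.8, against 6.93 in colony No.4.

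Acsl3 and Cpt1a act on either side of that branch. Acsl3, which activates fatty acids to acyl-CoA at the endoplasmic reticulum and on lipid droplets, was at 9.96 in colony No.8, against 10.57 in colony No.4, a difference of -0.61 (1.52-fold lower in colony No.8). Cpt1a, the carnitine transferase that admits long-chain fatty acids to mitochondria and is inhibited by malonyl-CoA, was at 7.76 in colony No.8, against 6.64 in colony No.4, which is 2.18-fold higher in colony No.8. As large a difference was seen in 4.07% of genes past the floor. Acaca and Cpt1a, whose products make and respond to malonyl-CoA, were thus the only measured genes of either arm to reach 2-fold in that direction. Neither did so when an offset of 64 was added on the linear scale (0.80 for Acaca and 0.78 for Cpt1a), and Acaca did not when differences were centred on their median (0.99).

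**Figure D3:**
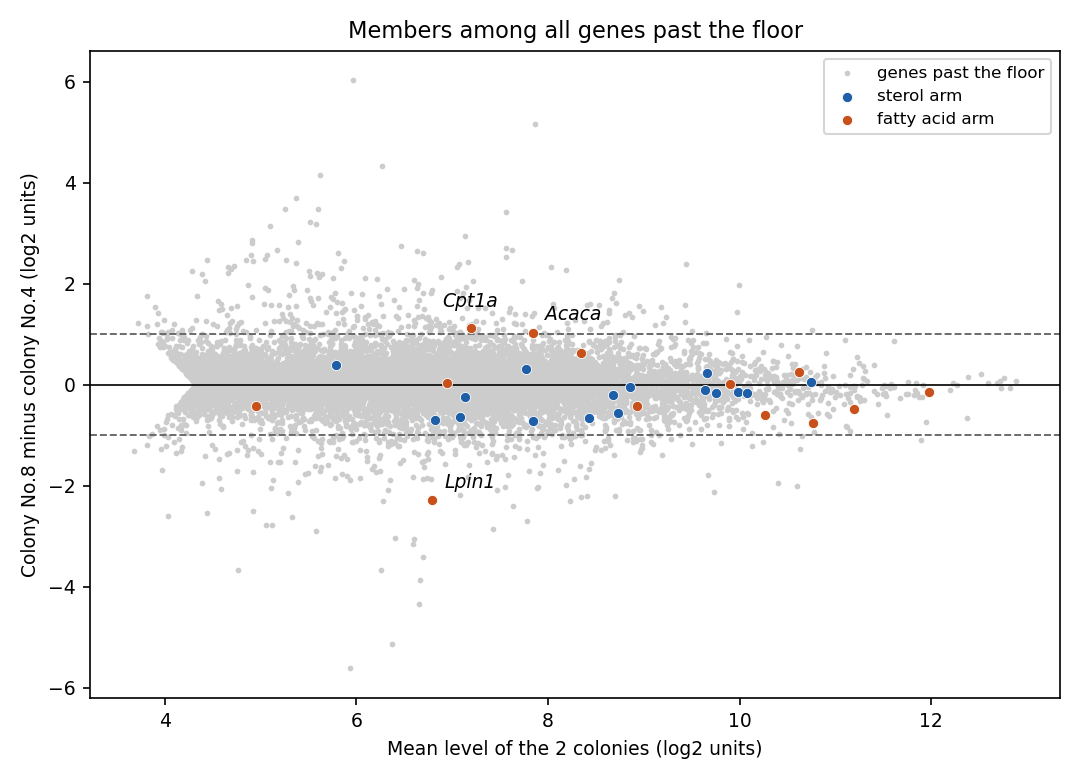
Difference between the colonies (y axis, colony No.8 minus colony No.4, log2 units) against the mean level of both colonies (x axis, log2 units) for the 11069 genes past the floor in grey, with the sterol arm in blue and the fatty acid arm in orange. Dashed lines mark 2-fold. Lpin1, Acaca and Cpt1a lie outside the lines, and the other 26 members past the floor lie between them.

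Of 7 pairs of related genes, Srebf1 with Srebf2 and Scd with Scd2 had the same sign, and the other 5 did not. Of all possible pairs of genes past the floor 48.4% had opposite signs, so the count by itself sets these pairs little apart. The gap was widest for Lpin1 and Lpin2 (2.32 log2 units, with Lpin2 at 0.03) and then for Elovl5 and Elovl6 (1.40). For Acaca and Acacb it was 1.07, with Acacb below the floor in both colonies. For Insig1 and Insig2 it was 0.95, and for Fads1 and Fads2 it was 0.72. Of the 8 alternatives only those that rescale the arrays can turn a sign. Lpin2 lay so near 0 that its sign turned under 2 of those (-0.01 when centred and -0.02 after loess). Insig2 (0.40) was under 5.67 in colony No.4 and differed by 0.18 with the offset of 64. That leaves the FADS and ELOVL pairs as those with opposite signs in which neither gene was under 5.67 or changed sign under an alternative. Of the pairs with the same sign, that of Srebf1 and Srebf2 has a like limit. Srebf1 was under 5.67 in both colonies, and its difference came to 0 with levels raised to 5.67.

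**Figure D4:**
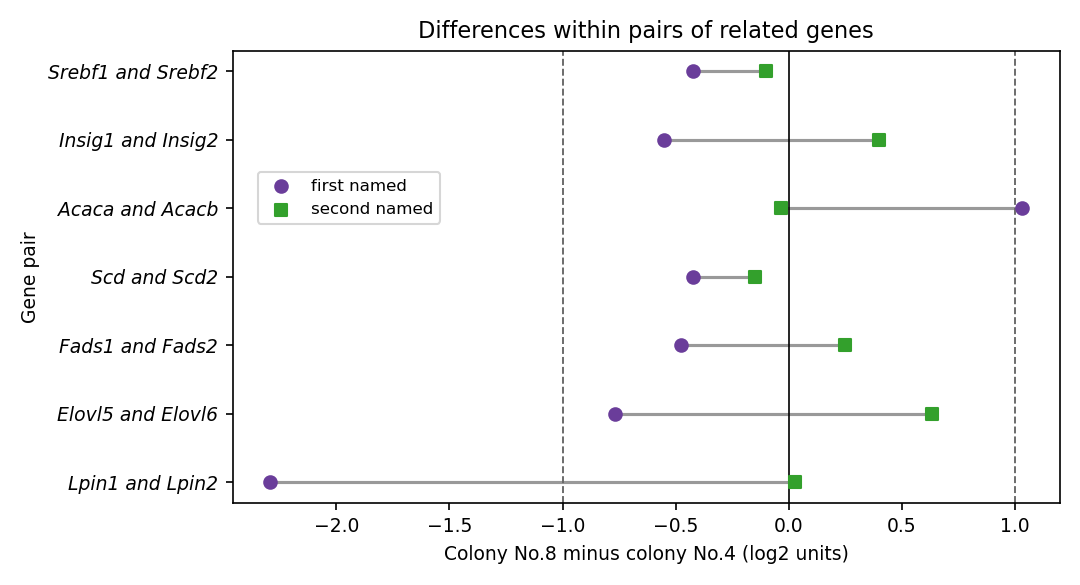
Difference between the colonies (x axis, colony No.8 minus colony No.4, log2 units) within 7 pairs of related genes, with the first named gene as a circle and the second as a square. Dashed lines mark 2-fold. In 5 pairs the symbols stand on opposite sides of 0, and the pair of Lpin1 and Lpin2 is the widest at 2.32.

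The spread of the differences was wider in the fatty acid arm, in part through Lpin1. In the sterol arm they ran from -0.71 to 0.40, with an SD across genes of 0.36. In the fatty acid arm they ran from -2.29 to 1.13, with an SD across genes of 0.85, and without Lpin1 the SD over the other 13 genes was 0.60. Over all genes past the floor the SD across genes was 0.53. These SDs describe genes on 1 pair of arrays and are no measure of error.

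**Figure D5:**
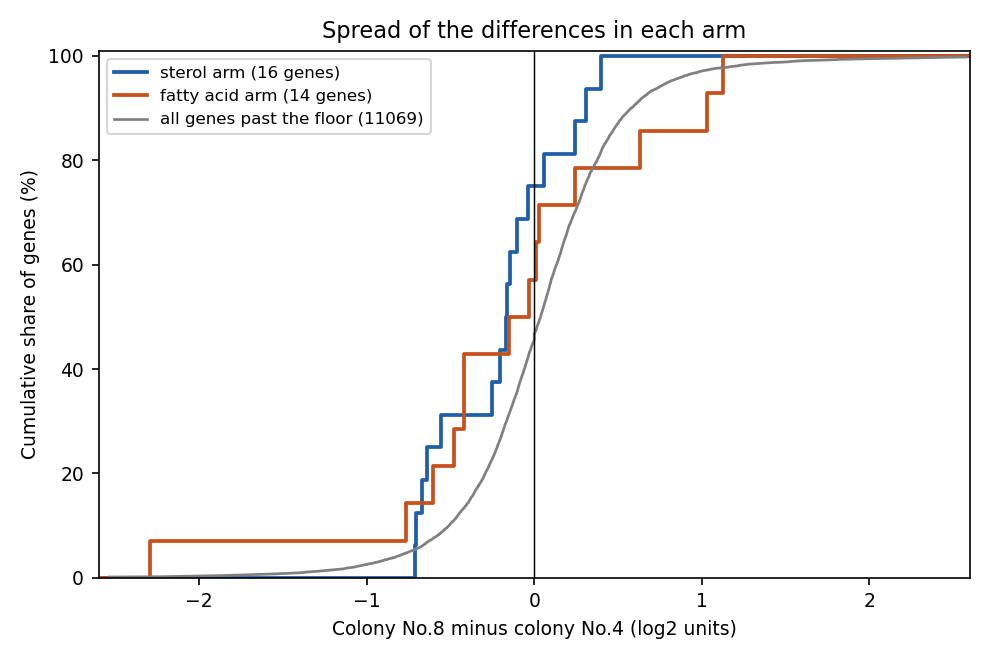
Cumulative share of genes (y axis, %) at or below each difference (x axis, colony No.8 minus colony No.4, log2 units) for the 16 sterol arm genes (blue), the 14 fatty acid arm genes (orange) and the 11069 genes past the floor (grey; the axis ends before the most extreme of these). The sterol curve starts at -0.71, to the right of the tail of the grey one (2.57% of genes past the floor at -1 or below), and passes above it before 0, and the fatty acid curve has long steps at both ends, out to -2.29 and 1.13.

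Further genes, which were not in the list of 33, were counted in the same way. Besides the same pathways they cover transport, storage and efflux of sterols, and regulators and mitochondrial entry of fatty acids. Their medians are thus not those of synthesis genes alone. Of 17 other sterol genes measured of 21 listed, all were past the floor, 11 were lower in colony No.8 (45.5% of genes past the floor were) and the median difference was -0.05. In either direction 0 reached 2-fold, against 5.47% of genes past the floor. Of these 17, 4 lay below and 4 above the middle 50% of all differences. Ebp, the sterol isomerase that acts before Sc5d, was the furthest at 7.62 in colony No.8, against 8.52 in colony No.4 (1.86-fold lower in colony No.8). Mbtps2, the protease that makes the second cut of the SREBPs, was at 6.59 in colony No.8, against 7.30 in colony No.4, while Scap was at 8.05 in colony No.8, against 7.61 in colony No.4. Ebp, Mbtps2 and Scap were named after their values were seen, and Ebp and Mbtps2 were the only 2 of this group past 1.5-fold.

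Of 30 other fatty acid genes measured of 33 listed, 23 were past the floor. Over all 30, 18 were higher and 11 lower in colony No.8 (44.3% of all genes measured were lower), and the median difference was 0.06. Of the 23, 1 reached 2-fold (5.47% of genes past the floor did), namely Hacd1, a dehydratase of fatty acid elongation. It was at 4.89 in colony No.8, against 6.30 in colony No.4, and counted from 5.67 it was at least 1.54-fold lower in colony No.8. Named after their values were seen, Acss2, which makes acetyl-CoA from acetate, was at 7.59 in colony No.8, against 8.24 in colony No.4, and Cpt1b, the muscle form of the carnitine transferase, was at 5.78 in colony No.8, against 4.86 in colony No.4. Counted from 5.67, the difference of Cpt1b was 1.07-fold. Lpin3, the remaining lipin gene, also named after its value was seen, was at 6.97 in colony No.8, against 6.72 in colony No.4, a difference of 0.25 and opposite in sign to that of Lpin1.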

How the data were processed

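Total RNA of 2 C6 colonies was measured on 1 biotin-labelled whole-transcript array each, per the labels' protocols. The values are log2 levels as deposited by the authors for 36685 features. Base 2 was inferred from the highest value, 13.34, and the steps of background correction, normalization and summarization were not given in the sources used here. Scanner signals and detection calls were not used, and precision is limited by the number of arrays.

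Features with exactly 1 symbol in the platform annotation (18511, against 575 with several and 17599 with none) gave 18166 genes, and where a gene had several features the one with the highest mean level stood for it. All 30 members matched RefSeq by gene ID with the same symbol, and promoter windows are those of RefSeq on GRCr8. Srebf1 was placed in the fatty acid arm. Some genes of these pathways are not reported here. Counts are of genes past the floor whose difference reached 1 (2-fold) in size. All members are named, and of the other pathway genes those at least 2-fold apart, with further names marked as chosen after their values were seen. Members, lists and motifs were chosen with earlier results of these data known. Alternatives covered scaling between arrays, handling of low levels, feature choice, fold size and summary. The counting was run on simulated data whose noise was far smaller than the differences here and whose added changes all passed 2-fold. That run checked the code only, and not calls near the 2-fold line. Python 3.11.15, pandas 2.3.3 and statsmodels 0.14.6 were used.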

Additional observations from a re-analysis of the deposited data

How the results depend on the processing

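No paired analysis was possible because each colony has 1 array. The sterol arm median lay between -0.21 and -0.13 under every alternative tried, and the fatty acid arm median between -0.15 and 0.00 (0 with levels raised to 5.67). Of the 30 members, 26 kept their sign under all 8 settings. Only the settings that rescale the arrays (centring, quantile normalization and loess) could turn a sign. The offset and raised levels cannot, and the feature settings leave members with 1 feature unchanged, so under those the sign was fixed in advance. Acly and Lpin2, both near 0, turned, and Acacb and Srebf1 came to 0 with levels raised to 5.67 (Acacb also to the floor). Acaca sat close to the 2-fold line: with differences centred on the median difference 1 member reached 2-fold in the direction of colony No.8 (Cpt1a), and with an offset of 64 added on the linear scale 0 did (Acaca 0.80, Cpt1a 0.78), since an added offset shrinks every difference, most at low levels. Lpin1 lay between -2.34 and -1.44 and stayed past 2-fold in all 8. At 1.5-fold in place of 2-fold, 7 members were higher in colony No.4, against 7.93% of genes past the floor. With the brighter colony at 8 or over it was 4 of 20 members, against 11.1% of genes in that range. At that size 2 of 17 other sterol and 6 of 23 other fatty acid genes past the floor were apart in either direction, against 17.8%. The 1 other fatty acid gene at 2-fold, Hacd1, was no longer so with the offset or with levels raised to 5.67, leaving 0. The feature settings changed no member, since each had 1 feature. Levels under 5.67 may lie near background, which touches Srebf1, Acacb, Insig2 in colony No.4 and Lpin1 in colony No.8.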

Other observations

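Genes on either side of the synthesis routes were looked at in 2 further lists, chosen after the members' values had been seen. The genes under 2-fold that are named from these lists were picked after their own values were seen. Of 16 fatty acid oxidation genes, all past the floor, 9 were higher and 7 lower in colony No.8 (45.5% of genes past the floor were lower). The median difference was 0.04, against 0.04 over the genes past the floor, so these values set the list little apart. In size 1 reached 2-fold, against 5.47% of genes past the floor. That gene was Hadh, the short-chain hydroxyacyl-CoA dehydrogenase, at 7.88 in colony No.8, against 6.62 in colony No.4 (2.39-fold higher in colony No.8). Acadm, the medium-chain acyl-CoA dehydrogenase, was at 7.90 in colony No.8, against 6.92 in colony No.4, and Acaa2, a mitochondrial thiolase, at 6.95 in colony No.8, against 6.09 in colony No.4. Like Cpt1a, these 3 were higher in colony No.8, whereas Hadhb, a subunit of the trifunctional protein of long-chain oxidation, was at 8.90 in colony No.8, against 9.63 in colony No.4 (1.67-fold lower in colony No.8), and Slc25a20, the carnitine carrier that follows Cpt1a, was at 6.17 in colony No.8, against 6.74 in colony No.4.

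Of 15 lipid uptake and storage genes measured, 11 were past the floor. Over all 15, 7 were higher and 7 lower in colony No.8 and 1 was equal (44.3% of all genes measured were lower). Of the 11, 0 reached 2-fold, against 5.47% of genes past the floor. The genes furthest apart were all lower in colony No.8. Vldlr, a lipoprotein receptor, was at 7.40 in colony No.8, against 8.27 in colony No.4. Plin2, a coat protein of lipid droplets, was at 9.39 in colony No.8, against 10.18 in colony No.4, and Hilpda, an inhibitor of droplet lipolysis, was at 5.88 in colony No.8, against 6.65 in colony No.4. Apoe, the main apolipoprotein of astrocytes, was under 5.67 in both colonies (4.73 in colony No.8, against 4.19 in colony No.4).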
